A study of Mus musculus with 48 samples.

Results

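Hippocampal microglia of juvenile mice were compared 1 day after whole brain irradiation with microglia of sham animals taken at the same time. All 12 libraries of that day were used, 6 irradiated and 6 sham, of 48 in the series. The mice were C57BL/6. The irradiated animals received a single 8 Gy dose to the whole brain on postnatal day 21, and the sham animals received none. No transgene or other agent is named in the labels for either group. The hippocampus was dissected after perfusion, mild enzymatic digestion freed single cells, and microglia were sorted by flow cytometry on Cx3cr1, the fractalkine receptor. Total RNA of each animal gave 1 bulk library (QIAseq FX kit for single cell RNA). The sort keeps any cell that carries Cx3cr1, so other myeloid cells with this receptor can enter it.

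Microglia are the resident macrophages of the brain. They survey the tissue through purinergic and chemokine receptors, clear dying cells, and depend on signalling through the receptor of colony stimulating factor. Ionizing radiation breaks DNA, which stabilizes the transcription factor p53 and switches on genes of cell cycle arrest and cell death. Free DNA or RNA in the cytosol can be read by innate sensors that drive interferon-stimulated genes. Microglia near damaged or dying cells are known to lower the genes of their resting, homeostatic state and to raise a set called disease-associated, rich in lysosomal and lipid-handling genes.

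Reads on genes numbered 1718013 to 3298739 in 11 of the 12 libraries and 175382 in sham library 6. That library stood apart: it lay at 82.2 on the first principal component (21.2% of the variance), where the other 11 lay between -21.97 and 16.6, and its median correlation with its own group was 0.769, against 0.851 to 0.880 for the others. The second component (14.7%) had the sham libraries at 11.3 to 26.4 and the irradiated libraries at -37.8 to -9.46. Counts are therefore also given without sham library 6. Levels are RPKM recomputed from recovered reads over the whole gene span, introns included, so they compare libraries for 1 gene and not genes with each other. A difference is the irradiated mean less the sham mean of log2(RPKM + 1), with its standard error after ±. This scale understates the change of genes at low levels. Adjusted p values are from limma with Benjamini-Hochberg adjustment over 10132 genes, and a gene is said to have risen or fallen where this p is below 0.05. In a bulk sample, fewer cells of a type and less RNA per cell cannot be told apart. The labels call the 6 libraries of a group separate animals. All 9 tested markers of microglia and myeloid cells had reads in every library, and summed to 30940 to 37630 reads per 1000000 in the sham and 22830 to 29860 in the irradiated libraries.

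At 1 day, 294 genes had risen (2.9% of the 10132 tested) and 141 had fallen (1.39%). At an unadjusted p below 0.05 the counts were 915 and 676. Of the genes that rose, 106 differed by at least 1 on the log2 scale and 19 by at least 2, and of those that fell, 31 and 1 did. For 232 of all genes tested (2.29%) every irradiated library lay above every sham library, and for 70 (0.691%) every irradiated library lay below. The median difference over all genes was 0. Without sham library 6, 302 genes had risen and 193 had fallen, with 261 and 118 of the original calls among them. With voom weights on the recovered reads the split was 328 to 242, and there the median over all genes was -0.13. With the 12 libraries of 1 day fitted alone it was 204 to 55, and 24 of the 97 genes that the naming rule chose and that were called no longer passed, among them Csf1r, Cx3cr1, Sall1, Tlr9, Abcg1, Fcgr4, Cd80, Msh6 and Wdr24. On the values as deposited, scaled by totals of other libraries, it was 39 to 0.

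**Figure D1:**
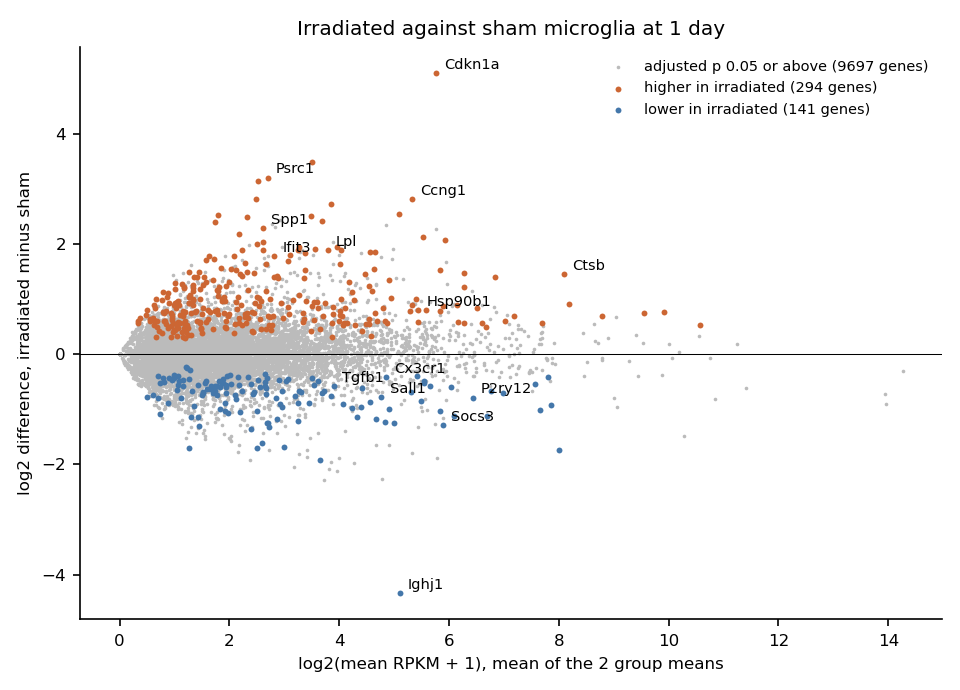
Each point is 1 of the 10132 genes tested: the x axis gives the level as log2(mean RPKM + 1) over both groups and the y axis the log2 difference, irradiated minus sham, at 1 day. Of the coloured points, 294 lie above 0 and 141 below, with Cdkn1a highest at 5.11 and Ighj1 lowest at -4.34.

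Targets of p53 were among the largest differences. Of 12 listed genes that p53 switches on to halt the cell cycle, 10 passed the filter on low values, 8 rose and 0 fell, with a median difference of 0.94. Of 16 listed for cell death, 12 passed, 9 rose and 0 fell (median 1.08). The same counts of 8 and 9 were found without sham library 6. Cdkn1a, which encodes the cyclin-dependent kinase inhibitor p21 (ENSMUSG00000023067, GRCm38 chromosome 17, 29090979 to 29100722), lay at 1.52 to 3.04 RPKM (median 1.95) in the sham and 95.2 to 124 RPKM (median 99.6) in the irradiated libraries. Every irradiated library was far above every sham library, and the difference was 5.11 ± 0.25 (adjusted p = 4.68e-20). Ccng1, which encodes cyclin G1, lay at 7.49 to 9.8 RPKM (median 9.1) in the sham and 58.1 to 84.8 RPKM (median 66.3) in the irradiated libraries, a difference of 2.81 ± 0.12 (adjusted p = 1.55e-22). Again the groups did not overlap. Psrc1, which encodes a spindle-associated protein, lay at 0 to 0.414 RPKM (median 0.216) in the sham and 6.17 to 17.3 RPKM (median 10.2) in the irradiated libraries, a difference of 3.21 ± 0.18 (adjusted p = 4.38e-18). Plk2, a polo-like kinase, rose by 1.73 ± 0.24 (adjusted p = 1e-06). Plk3, of the same family, rose by 0.95 ± 0.27 (adjusted p = 0.0305). Zmat3, an RNA-binding p53 target, rose by 0.93 ± 0.16 (adjusted p = 5.87e-05).

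Among the death genes, Bax, which permeabilizes the outer mitochondrial membrane, lay at 5.53 to 14.6 RPKM (median 7.18) in the sham and 29.2 to 88.01 RPKM (median 55.4) in the irradiated libraries. Its groups did not overlap, although sham library 6, at 14.2 RPKM, was among the higher sham values, and the difference was 2.55 ± 0.34 (adjusted p = 6.48e-07). Bbc3, which encodes the BH3-only protein PUMA, lay at 0.975 to 1.74 RPKM (median 1.17) in the sham and 6.61 to 9.74 RPKM (median 8.05) in the irradiated libraries, a difference of 2.01 ± 0.20 (adjusted p = 6.57e-10). Phlda3, an inhibitor of Akt, lay at 0 to 0.329 RPKM (median 0.147) in the sham libraries and 6.05 to 13.3 RPKM (median 8.998) in the irradiated ones, and rose by 3.14 ± 0.18 (adjusted p = 7.8e-18). Trp53inp1, a stress protein that partners p53, rose by 1.65 ± 0.16 (adjusted p = 5.55e-10). Aen, an exonuclease of apoptosis, rose by 1.28 ± 0.15 (adjusted p = 3e-08). Rps27l, which encodes a ribosomal protein-like p53 target, rose by 1.66 ± 0.22 (adjusted p = 4.53e-07). Apaf1, the scaffold of the apoptosome, rose by 0.42 ± 0.09 (adjusted p = 0.00159). Of 25 further listed apoptosis effectors and Bcl2 family genes, 21 passed the filter and 0 rose or fell (median 0.05), also without sham library 6 and with voom weights. Without adjustment, 2 were higher and 1 lower at p below 0.05. Mcl1, a survival member of the Bcl2 family, lay at 88.9 to 105 RPKM (median 102) in the sham and 98.2 to 124 RPKM (median 114) in the irradiated libraries (adjusted p = 0.636).

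Of 19 listed p53 targets of repair, redox balance and metabolism, 14 passed the filter, 6 rose (3 with the 12 libraries of 1 day fitted alone) and 1 fell. The sestrins, stress proteins that restrain mTORC1, went opposite ways. Sesn2 lay at 0.926 to 4.46 RPKM (median 3.47) in the sham and 14.9 to 24.9 RPKM (median 22.3) in the irradiated libraries, a rise of 2.42 ± 0.25 (adjusted p = 1.05e-09). Sesn1 lay at 2.85 to 3.77 RPKM (median 3.3) in the sham and 1.51 to 2.06 RPKM (median 1.87) in the irradiated libraries, a difference of -0.59 ± 0.12 (adjusted p = 0.000814). Neither pair of groups overlapped. Slc19a2, a thiamine transporter, rose by 2.18 ± 0.17 (adjusted p = 1.77e-13). Gdf15, a stress-induced secreted protein of the TGF-beta family, rose by 1.70 ± 0.35 (adjusted p = 0.0010). Polk, a translesion DNA polymerase, rose by 0.49 ± 0.12 (adjusted p = 0.00673). Dcxr, a carbonyl reductase, rose by 1.31 ± 0.36 (adjusted p = 0.0242), and its adjusted p was 0.0536 without sham library 6. The feedback inhibitors of p53 rose as well. Mdm2, its ubiquitin ligase, rose by 1.43 ± 0.16 (adjusted p = 1.6e-08). Mdm4, the partner of Mdm2, rose by 1.02 ± 0.13 (adjusted p = 2.78e-07). For both the irradiated libraries were all above the sham libraries.

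Most genes of DNA synthesis and division were below the filter. Of 25 listed S phase genes 11 passed it and of 26 mitosis genes 2 did, and 0 of either rose or fell, also without sham library 6. Among the S phase genes 0 were higher and 2 lower at an unadjusted p below 0.05, and among the mitosis genes 0 were higher and 0 lower. Summed over the whole mitosis list, the libraries held 27.9 to 96.9 reads per 1000000 in the sham and 10.6 to 42.2 in the irradiated group. The highest sham sum was that of sham library 6, and the other 5 did not exceed 54.6. Pcna, the sliding clamp of DNA replication and also a p53 target, lay at 6.31 to 9.58 RPKM (median 8.002) in the sham and 5.7 to 10.02 RPKM (median 8.22) in the irradiated libraries, with overlapping groups (difference 0.01 ± 0.20). Of 30 listed DNA repair genes, 11 passed and 1 rose, Msh6, a mismatch recognition subunit (difference 0.58 ± 0.16, adjusted p = 0.0212). Ccnd1, which encodes cyclin D1, is outside these lists and was picked after its values were seen: it lay at 3.99 to 7.16 RPKM (median 5.55) in the sham and 17.2 to 56.4 RPKM (median 19.3) in the irradiated libraries and rose by 1.90 ± 0.23 (adjusted p = 5.46e-08).

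Interferon-stimulated genes rose as a broad set. Of 53 listed, 51 were in the table once, 41 passed the filter, 27 rose and 0 fell, and the same counts were found without sham library 6. Their median difference was 0.90, 39 of the 41 differences were above 0, and for 20 of them the groups did not overlap. Summed over the list, the sham libraries held 1504 to 1773 reads per 1000000 and the irradiated libraries 3022 to 4459. The highest of these sham sums was that of sham library 6. Where the RefSeq promoter table (GRCm38.p6) matched a tested member by symbol, which it did for 29 of 41, 15 (51.7%) held the letters GAAANNGAA on either strand in the 250 bases before the start site. This is the core repeat of the interferon-stimulated response element. It was held by 8.18% of all 27025 genes in that table, and by 7.52% of the 5666 tested genes it matched. It was found in 9 of 18 matched members that rose and 6 of 11 that did not. The 3 promoters below show such a match, in capitals, in the 150 bases before the start site of members with small p values, written 5′ to 3′ on the strand of the gene, where the match reads as the reverse complement.
Trim30a (chr7:104465194-104465343, minus strand): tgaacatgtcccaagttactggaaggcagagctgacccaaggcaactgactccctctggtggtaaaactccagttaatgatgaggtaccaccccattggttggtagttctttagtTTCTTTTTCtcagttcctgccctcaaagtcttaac
Rsad2 (chr12:26456453-26456602, minus strand): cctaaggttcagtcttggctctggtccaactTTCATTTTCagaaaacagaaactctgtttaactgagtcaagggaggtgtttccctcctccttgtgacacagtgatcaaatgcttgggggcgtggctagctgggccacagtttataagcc
Ifit3 (chr19:34583379-34583528, plus strand): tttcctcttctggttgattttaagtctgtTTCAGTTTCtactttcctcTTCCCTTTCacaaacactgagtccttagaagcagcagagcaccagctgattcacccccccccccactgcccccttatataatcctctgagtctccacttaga

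Of these, Trim30a, a ubiquitin ligase that restrains innate signalling, lay at 1.33 to 2.03 RPKM (median 1.44) in the sham and 3.07 to 5.26 RPKM (median 3.94) in the irradiated libraries. The groups did not overlap, and the difference of 0.97 ± 0.10 (adjusted p = 1.37e-09) had the smallest p of the list. Rsad2, which encodes the antiviral enzyme viperin, lay at 0.254 to 3.33 RPKM (median 0.604) in the sham and 2.68 to 9.08 RPKM (median 5.42) in the irradiated libraries, a rise of 1.78 ± 0.27 (adjusted p = 8.6e-06). Its highest sham value was that of sham library 6, above the lowest irradiated value, and the other 5 sham libraries did not exceed 0.797 RPKM. Ifit3, a tetratricopeptide protein that binds viral RNA complexes, lay at 0.895 to 5.48 RPKM (median 1.62) in the sham libraries, where library 6 was again the highest, and at 6.22 to 17.01 RPKM (median 8.21) in the irradiated ones. Ifit3 has a close copy, Ifit3b, so the split of reads between them is uncertain. Slfn2, a Schlafen protein that regulates T cell quiescence, lay at 6.94 to 11.2 RPKM (median 9.11) in the sham and 32.7 to 42.5 RPKM (median 34.9) in the irradiated libraries, with no overlap, and rose by 1.86 ± 0.28 (adjusted p = 5.32e-06).

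Transcription factors of the interferon response were among the members that rose. Stat2, which carries the interferon signal to the nucleus, went from a mean of 3.01 ± 0.829 to 7.74 ± 0.752 RPKM (± SD, n = 6 a group), a difference of 1.15 ± 0.19 (adjusted p = 4.48e-05), and all 6 irradiated libraries were above all sham libraries. Irf9, its DNA-binding partner, rose by 0.90 ± 0.23 (adjusted p = 0.0144). Its irradiated libraries lay at 38.99 to 77.7 RPKM (median 42.6), sham library 6 at 45.9 RPKM, and the other 5 sham libraries at 24.7 RPKM or below. Irf7, the amplifier of type I interferon production, rose by 1.90 ± 0.41 (adjusted p = 0.00226). Members with antiviral roles rose as well. Mx1, a dynamin-like GTPase, rose by 1.48 ± 0.28 (adjusted p = 0.000338). Oas1a, an oligoadenylate synthetase, rose by 0.79 ± 0.19 (adjusted p = 0.00647). Zbp1, a sensor of Z-form nucleic acid, rose by 1.20 ± 0.24 (adjusted p = 0.000592). Some well-known members did not pass. Isg15, the ubiquitin-like modifier, lay at 0 to 19.6 RPKM (median 3.2) in the sham and 12.2 to 23.2 RPKM (median 15) in the irradiated libraries (difference 1.90 ± 0.70, adjusted p = 0.126). Bst2, which tethers virions, had a difference of 1.27 ± 0.46 (adjusted p = 0.122).

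Of the interferon genes themselves, Ifnb1, Ifna4 and Ifng were below the filter. Of 16 listed interferons, receptors and signal regulators, 13 passed, 0 rose and 1 fell (2 without sham library 6). The 1 gene was Socs3, a feedback inhibitor of cytokine receptors that is switched on by STAT3, at 54.6 to 137 RPKM (median 75.3) in the sham and 17.1 to 45.99 RPKM (median 32.8) in the irradiated libraries. All its irradiated libraries were below all sham libraries, with a difference of -1.29 ± 0.29 (adjusted p = 0.00301). Of 17 listed nucleic acid sensors, 13 passed, 3 rose and 2 fell. The counts were 3 and 0 with the 12 libraries of 1 day fitted alone, and 2 and 0 with the replicate block. Aim2 and Tlr9 no longer passed in either fit, so the 3 rises with the 12 libraries alone are not the same 3 genes. Dhx58, which encodes the RIG-I-like receptor LGP2, lay at 1.74 to 6.07 RPKM (median 2.52) in the sham and 8.73 to 23.4 RPKM (median 13.6) in the irradiated libraries, and rose by 1.89 ± 0.23 (adjusted p = 5.05e-08). Aim2, a receptor of cytosolic DNA, rose by 0.34 ± 0.10 (adjusted p = 0.0307). Tmem173, which encodes the adaptor STING, fell by 0.53 ± 0.16 (adjusted p = 0.0428). Tlr9, the endosomal receptor of unmethylated DNA, lay at 15.96 to 38.3 RPKM (median 24.8) in the sham and 3.34 to 24 RPKM (median 12.3) in the irradiated libraries, with overlapping groups and a difference of -1.13 ± 0.29 (adjusted p = 0.0144). Its irradiated libraries 1 to 3 lay at 8.89 RPKM or below and libraries 4 to 6 at 15.7 to 24, near or within the sham range.

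**Figure D2:**
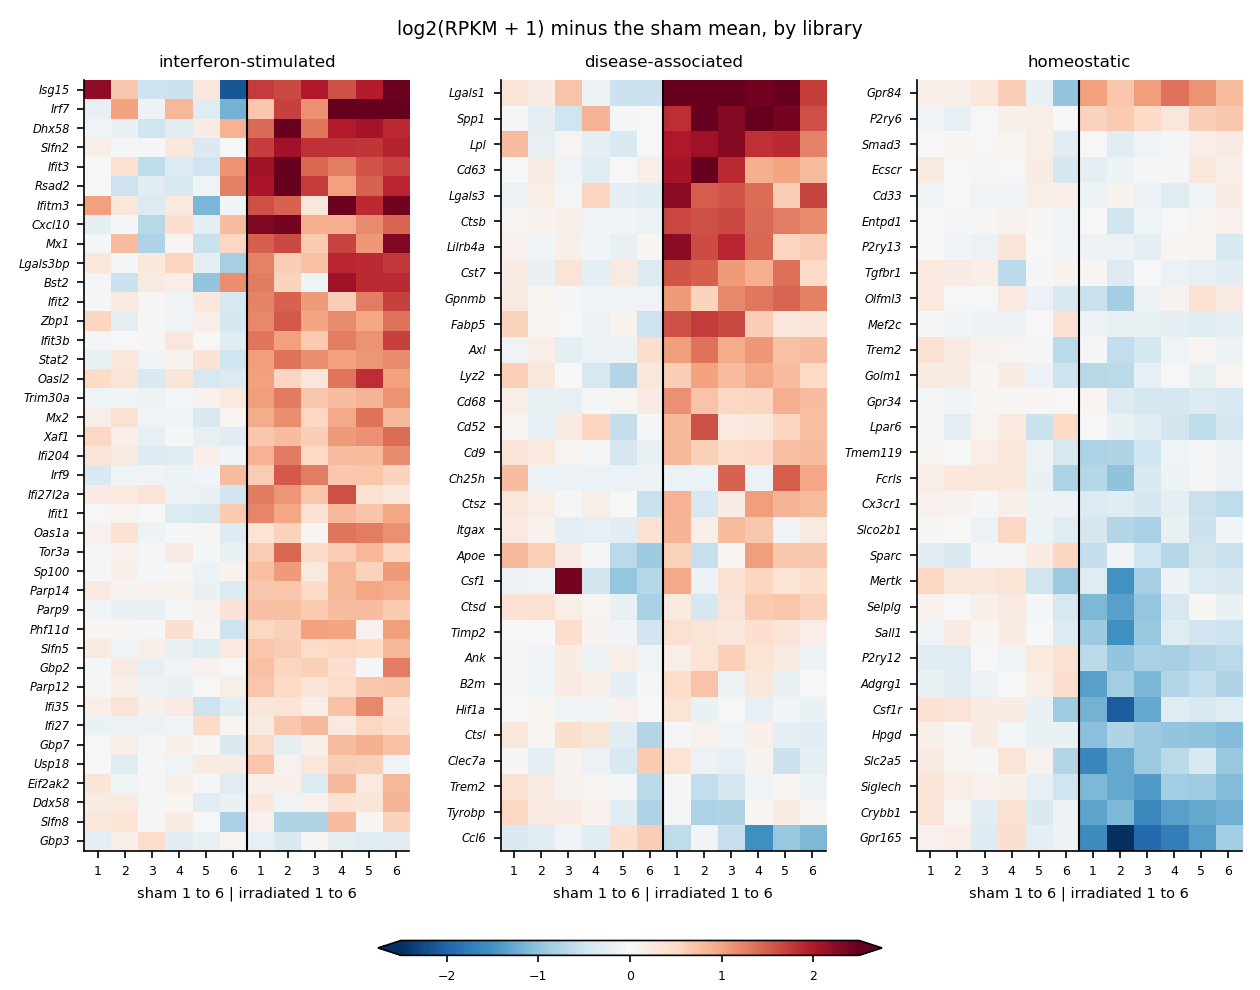
Rows are tested members of 3 gene lists, ordered by their difference, and columns the 12 libraries of 1 day. Colour gives log2(RPKM + 1) minus the mean of the 6 sham libraries, cut at 2.5 on either side. Interferon-stimulated and disease-associated genes are mostly red in the irradiated columns and homeostatic genes mostly blue, and sham column 6 is less even than the other sham columns.

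Chemokines for monocytes rose. Of 20 listed chemokines and their receptors, 16 passed the filter, 6 rose and 1 fell, with or without sham library 6. Ccl2, the main ligand of the monocyte receptor Ccr2, lay at 7.42 to 16.1 RPKM (median 9.07) in the sham and 31.02 to 47.5 RPKM (median 38.4) in the irradiated libraries. Ccl12, a neighbouring ligand of the same receptor, lay at 7.33 to 22.96 RPKM (median 17.7) and 61.1 to 93.9 RPKM (median 66.6). The groups of both genes stood apart, with differences of 1.86 ± 0.30 (adjusted p = 2.07e-05) and 2.12 ± 0.30 (adjusted p = 1.55e-06). Ccl7, another Ccr2 ligand, rose by 1.70 ± 0.37 (adjusted p = 0.00199). Ccl4, another chemokine of the CC family, rose by 1.40 ± 0.36 (adjusted p = 0.0121). Cxcl10, an interferon-induced attractant of T cells, rose by 1.52 ± 0.43 (adjusted p = 0.0285). Cxcl16, a membrane-bound ligand of Cxcr6, rose by 1.39 ± 0.26 (adjusted p = 0.000349). Ccl9 went the other way: it lay at 74.5 to 113 RPKM (median 87.2) in the sham and 30.6 to 54.3 RPKM (median 43.6) in the irradiated libraries, with no overlap (difference -1.12 ± 0.16, adjusted p = 3.94e-06). Members of this family are alike in sequence, so reads of neighbours such as Ccl2, Ccl7 and Ccl12 may be shared.

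Of 19 listed cytokines 11 passed, 3 rose and 1 fell. Tnf lay at 0.944 to 13.02 RPKM (median 2.73) in the sham and 8.11 to 22.9 RPKM (median 14.6) in the irradiated libraries, and rose by 1.85 ± 0.45 (adjusted p = 0.00696). Sham library 6 had the highest sham value and overlapped 3 irradiated libraries, while the other 5 sham libraries did not exceed 4.38 RPKM. Il1b rose by 1.27 ± 0.29 (adjusted p = 0.00441) from low levels, with 0 to 0.971 RPKM (median 0.332) in the sham and 1.21 to 5.21 RPKM (median 2.29) in the irradiated libraries. Il1a, the other interleukin 1 ligand, rose by 1.13 ± 0.34 (adjusted p = 0.0466). It no longer passed with a pseudocount of 0.1 or with no filter on low values. Tgfb1, which encodes the growth factor that microglia need to keep their identity, fell, with 12.6 to 20.02 RPKM (median 16.9) in the sham and 7.53 to 14.7 RPKM (median 11.01) in the irradiated libraries (difference -0.58 ± 0.14, adjusted p = 0.00904). Irradiated libraries 1 to 3 lay at 8.84 RPKM or below and libraries 4 to 6 at 13.2 to 14.7. The lowest sham value was that of sham library 6. The other 5 sham libraries lay at 15.5 RPKM and above, higher than every irradiated library. Tgfb1 did not pass with the 12 libraries of 1 day fitted alone. Of 12 tested TGF-beta pathway genes it was the 1 that passed. Of 26 listed Toll-like receptor and NF-kB genes 23 passed the filter, and 0 rose or fell, with 0 also without sham library 6 and 1 rise with voom weights. Of the 23, 4 were higher and 1 lower at an unadjusted p below 0.05. Nfkbia, the NF-kB inhibitor, lay at 84.8 to 169 RPKM (median 96.8) in the sham and 136 to 183 RPKM (median 159) in the irradiated libraries (difference 0.55 ± 0.22, adjusted p = 0.164), and the highest sham value was that of library 6.

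The disease-associated set rose in part. Of 32 listed genes, 30 passed the filter, 12 rose and 0 fell, also without sham library 6, with a median difference of 0.61. For each of the 12 the irradiated libraries all lay above the sham libraries. Spp1, which encodes the secreted phosphoprotein osteopontin (ENSMUSG00000029304, GRCm38 chromosome 5, 104435118 to 104441050), lay at 0.392 to 2.53 RPKM (median 0.908) in the sham and 5.005 to 14.97 RPKM (median 8.99) in the irradiated libraries, a rise of 2.29 ± 0.24 (adjusted p = 1.84e-09). Lgals1 and Lgals3 encode galectins, lectins that bind glycoproteins. Lgals1 lay at 0 to 1.4 RPKM (median 0.494) in the sham and 3.83 to 8.86 RPKM (median 8.3) in the irradiated libraries and rose by 2.49 ± 0.26 (adjusted p = 1.84e-09), and Lgals3 rose by 1.503 ± 0.18 (adjusted p = 5.46e-08). Lpl, lipoprotein lipase, lay at 3.4 to 8.7 RPKM (median 4.3) in the sham and 12.5 to 26.6 RPKM (median 20.9) in the irradiated libraries and rose by 1.89 ± 0.20 (adjusted p = 1.22e-09). The highest sham value of Lpl was that of library 1. Gpnmb, a glycoprotein of lysosomal membranes, rose by 1.14 ± 0.14 (adjusted p = 1.02e-07) and Axl, a receptor kinase for dying cells, by 0.99 ± 0.15 (adjusted p = 1.26e-05). Several members best known from this state did not pass. Apoe, the apolipoprotein, had a difference of 0.42 ± 0.27 (adjusted p = 0.497). Trem2, the lipid-sensing receptor, had -0.21 ± 0.17 (adjusted p = 0.629), and its adaptor Tyrobp -0.21 ± 0.19 (adjusted p = 0.681). Itgax, an integrin, had 0.43 ± 0.17 (adjusted p = 0.155), and Clec7a, a receptor of fungal glucans, -0.11 ± 0.19 (adjusted p = 0.848).

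Lysosomal genes overlapped with that set in Ctsb, Cst7, Cd63 and Cd68, and went beyond it. Of 30 listed hydrolases, cathepsins and their inhibitors, all passed the filter, 10 rose and 1 fell (median 0.30). Of 28 listed membrane and proton pump genes 25 passed, 5 rose and 0 fell (median 0.21). Without sham library 6 the counts were 9 to 2 and 4 to 1. Ctsb, the protease cathepsin B (ENSMUSG00000021939, GRCm38 chromosome 14, 63122462 to 63145919), lay at 130.0 to 157 RPKM (median 143) in the sham and 324 to 456 RPKM (median 406) in the irradiated libraries, and its difference of 1.46 ± 0.11 (adjusted p = 8.65e-14) had the smallest p of both lists. The gene overlaps Fdft1, and the strand setting of the counting is not given in the sources used here. Gusb, beta-glucuronidase, lay at 47.1 to 79.4 RPKM (median 63.6) and 106 to 128 RPKM (median 116), and Ctsc, the protease that activates granule enzymes, at 16.2 to 18.9 RPKM (median 17.9) and 24.7 to 38.02 RPKM (median 30.3). Neither pair of groups overlapped, with differences of 0.84 ± 0.10 (adjusted p = 7.19e-08) and 0.75 ± 0.10 (adjusted p = 8.59e-07). Grn, which encodes progranulin, rose by 0.53 ± 0.12 (adjusted p = 0.00296). Tpp1, a peptidase, rose by 0.57 ± 0.12 (adjusted p = 0.0012). Lipa, the acid lipase, rose by 0.60 ± 0.15 (adjusted p = 0.00952). Ctss, cathepsin S, was the 1 hydrolase gene that fell, from 222 ± 19.3 to 152 ± 10.6 RPKM (mean ± SD, n = 6), a difference of -0.54 ± 0.12 (adjusted p = 0.00348). Of the membrane proteins, Cd63, a tetraspanin, lay at 21.2 to 30.2 RPKM (median 26.05) in the sham and 45.3 to 160.4 RPKM (median 74.5) in the irradiated libraries, and rose by 1.53 ± 0.25 (adjusted p = 2.69e-05). Its irradiated libraries 1 to 3 lay at 96.8 RPKM and above and libraries 4 to 6 at 52.2 and below. Lamp1, a main glycoprotein of the lysosomal membrane, rose by 0.56 ± 0.09 (adjusted p = 4.76e-05). Laptm5, a membrane protein of lysosomes in blood-lineage cells, rose by 0.58 ± 0.09 (adjusted p = 4.91e-06). Ppt1, a thioesterase, and Mcoln1, a calcium channel, no longer passed without sham library 6 (adjusted p = 0.0635 and 0.0592).

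Some genes of lipid efflux and storage rose. Of 22 listed 15 passed the filter, 4 rose and 0 fell, with or without sham library 6. Besides Lpl these were 2 cholesterol exporters and a lipid droplet protein. The exporter Abca1 lay at 3.53 to 4.58 RPKM (median 4.32) in the sham and 5.24 to 10.1 RPKM (median 7.64) in the irradiated libraries, with no overlap, and rose by 0.70 ± 0.13 (adjusted p = 0.000361). The exporter Abcg1 rose by 0.85 ± 0.19 (adjusted p = 0.00316). Its irradiated libraries 1 to 3 lay at 16.65 to 24.25 RPKM and libraries 4 to 6 at 8.96 to 11.5, while the sham libraries lay at 5.43 to 10.8. The highest sham value was that of sham library 6, and the other 5 sham libraries did not exceed 8.951 RPKM. The lipid droplet protein Plin2 rose by 1.04 ± 0.19 (adjusted p = 0.000196). Cholesterol synthesis and uptake showed 0 rises and 0 falls among 12 tested of 23 listed genes (median 0.11), also without sham library 6 and with voom weights. Of the 12, 2 were higher and 0 lower at an unadjusted p below 0.05. An example is Dhcr7, a late enzyme of that pathway, at 1.47 to 2.96 RPKM (median 2.23) in the sham and 2.27 to 4.34 RPKM (median 3.18) in the irradiated libraries (adjusted p = 0.256).

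**Figure D3:**
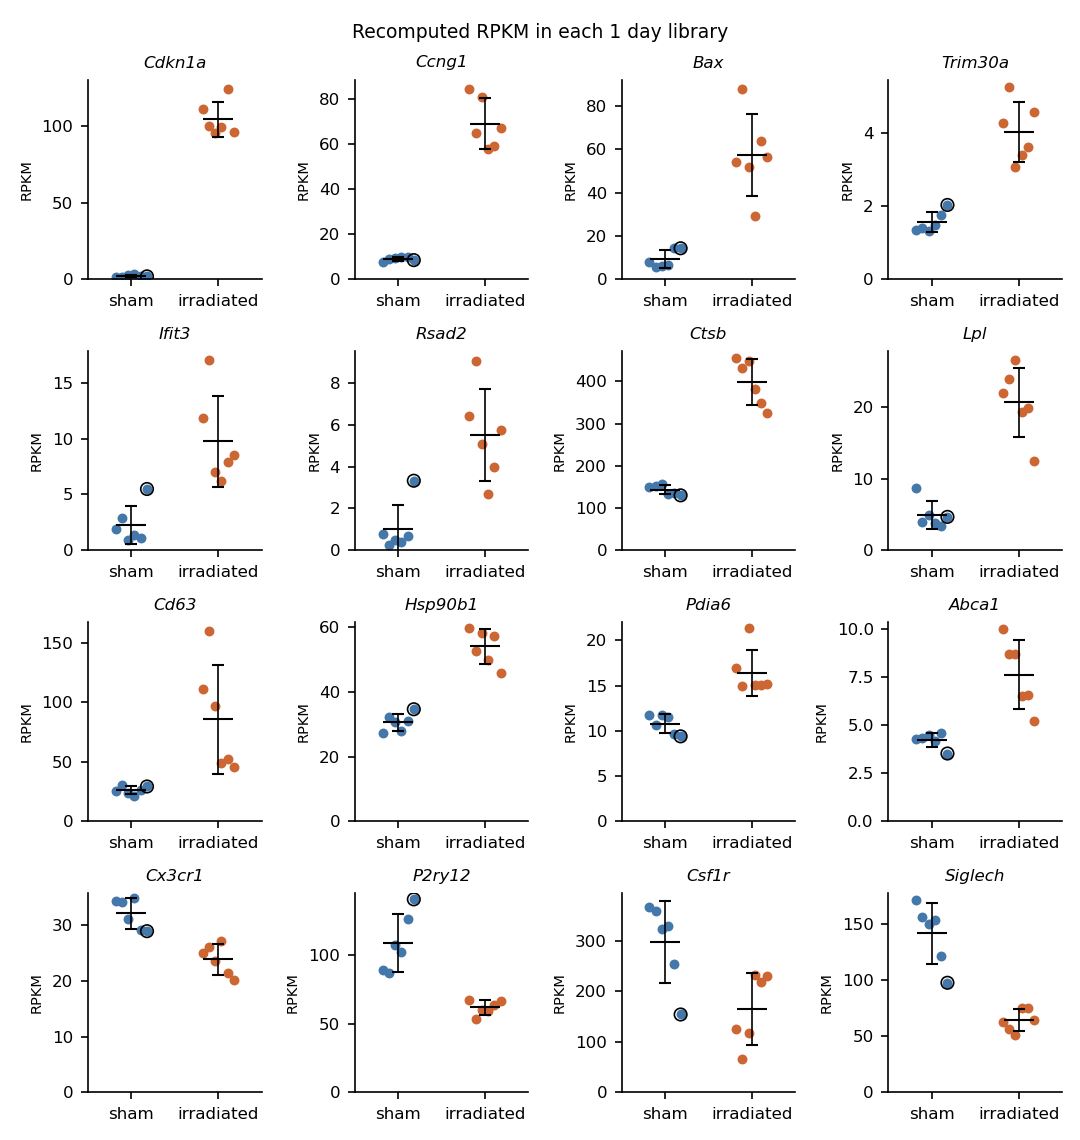
Each panel gives 1 gene, with RPKM in each of the 6 sham and 6 irradiated libraries as points and the mean with SD as bars. The circled point is sham library 6. For Cdkn1a the sham libraries lie at 1.52 to 3.04 and the irradiated ones at 95.2 to 124, and for Rsad2 and Csf1r the circled point lies among the irradiated values.

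Homeostatic genes fell in part. Of 32 listed genes, 31 were in the table once and passed the filter, 11 fell and 2 rose, and 29 of the 31 differences were below 0 (median -0.39). Without sham library 6 the counts were 12 and 2, and with the 12 libraries of 1 day fitted alone 7 and 2. Siglech, a sialic acid-binding lectin of microglia, lay at 97.6 to 171 RPKM (median 152) in the sham and 51.2 to 75.3 RPKM (median 63.9) in the irradiated libraries. The groups did not overlap even though sham library 6 had the lowest sham value, and the difference was -1.12 ± 0.11 (adjusted p = 7.02e-10). P2ry12, the ADP receptor that steers microglial processes (ENSMUSG00000036353, GRCm38 chromosome 3, 59216272 to 59262871, within Med12l), lay at 86.95 to 141 RPKM (median 105) in the sham and 53.7 to 67.6 RPKM (median 62) in the irradiated libraries, a difference of -0.79 ± 0.13 (adjusted p = 3.43e-05). Cx3cr1, on which the cells were sorted, lay at 28.8 to 34.9 RPKM (median 32.5) and 20.1 to 27.1 RPKM (median 24.2), again without overlap, and fell by 0.42 ± 0.09 (adjusted p = 0.00215). The span of Cx3cr1 shares positions with Wdr48, Gorasp1, Ttc21a, Csrnp1 and Xirp1, so reads of these genes may be counted in it. Csf1r, the receptor that microglia need to survive, lay at 154 to 366 RPKM (median 326) in the sham and 66.5 to 232 RPKM (median 172) in the irradiated libraries. Sham library 6 was the lowest sham library and lay within the irradiated range, and the other 5 sham libraries lay at 253 RPKM and above. The difference was -0.92 ± 0.21 (adjusted p = 0.00282). Adgrg1, an adhesion G protein-coupled receptor, fell, with a difference of -0.91 ± 0.17 (adjusted p = 0.00027). Hpgd, which degrades prostaglandins, had -0.96 ± 0.14 (adjusted p = 5.98e-06). Slc2a5, a fructose transporter, had -0.98 ± 0.17 (adjusted p = 6.93e-05). Gpr165, an orphan receptor, had -1.71 ± 0.32 (adjusted p = 0.000255).

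Other widely used microglial genes did not pass: Tmem119 had a difference of -0.39 ± 0.19 (adjusted p = 0.295), P2ry13 -0.13 ± 0.13 (adjusted p = 0.709), and Tgfbr1, the kinase receptor of TGF-beta, -0.15 ± 0.14 (adjusted p = 0.705). The 2 members that rose were receptors. P2ry6, which senses UDP from damaged cells, went from 17.9 ± 1.72 to 26.7 ± 2.58 RPKM (mean ± SD, n = 6), a difference of 0.55 ± 0.12 (adjusted p = 0.00226). Gpr84, a receptor of medium-chain fatty acids, went from 27.9 ± 9.37 to 54.8 ± 9.33 RPKM, a difference of 1.01 ± 0.20 (adjusted p = 0.00059). Of 27 listed transcription factors of microglia and their differentiation 24 passed, 1 rose and 2 fell. Sall1, a repressor that marks microglial identity, lay at 25.6 to 37.8 RPKM (median 33.02) in the sham and 10.7 to 26.3 RPKM (median 19.8) in the irradiated libraries (-0.78 ± 0.18, adjusted p = 0.00504). Mycl, a Myc family member, lay at 5.17 to 10.8 RPKM (median 7.53) and 0.825 to 5.43 RPKM (median 1.61), a difference of -1.62 ± 0.27 (adjusted p = 3.67e-05), with irradiated library 6 as the one irradiated value among the sham values. Bhlhe41, a repressor of the helix-loop-helix family, lay at 10.2 to 13.4 RPKM (median 10.9) in the sham and 15.7 to 22.8 RPKM (median 22.1) in the irradiated libraries, with no overlap, and rose by 0.84 ± 0.11 (adjusted p = 9.84e-07).

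Chaperones of the endoplasmic reticulum rose. Of 23 listed chaperones and genes of the integrated stress response, 18 passed the filter, 8 rose and 0 fell (median 0.41), with or without sham library 6. Of these 8, 7 encode chaperones, folding enzymes or their cofactors, and the eighth is the p53 target Sesn2. The promoters of 6 of the 18 (33.3%) held the letters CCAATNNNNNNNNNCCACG, the endoplasmic reticulum stress element, in the 250 bases before the start site on either strand, against 0.13% of all 27025 genes and 0.194% of the 5666 tested genes in the table. This was so for 4 of the 8 that rose and 2 of the 10 that did not. The match is in capitals in the 3 promoters below, given as the 150 bases before the start site on the strand of the gene. In Hsp90b1 it reads as the reverse complement.
Hsp90b1 (chr10:86705445-86705594, minus strand): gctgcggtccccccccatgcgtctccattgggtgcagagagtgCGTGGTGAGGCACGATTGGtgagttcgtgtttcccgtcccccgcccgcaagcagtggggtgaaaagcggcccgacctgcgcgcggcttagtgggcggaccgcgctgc
Pdia6 (chr12:17266439-17266588, plus strand): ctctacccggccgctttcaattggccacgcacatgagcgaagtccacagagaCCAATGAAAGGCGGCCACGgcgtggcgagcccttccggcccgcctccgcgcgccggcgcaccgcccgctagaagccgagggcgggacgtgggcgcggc
Canx (chr11:50325674-50325823, minus strand): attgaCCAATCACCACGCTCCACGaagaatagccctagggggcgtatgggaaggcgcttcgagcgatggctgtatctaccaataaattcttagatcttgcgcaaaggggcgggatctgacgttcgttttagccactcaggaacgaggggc

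Hsp90b1, the Hsp90 of this compartment, also called Grp94, lay at 27.4 to 34.7 RPKM (median 30.8) in the sham and 46.02 to 59.95 RPKM (median 55.1) in the irradiated libraries. Pdia6, a disulfide isomerase, lay at 9.38 to 11.8 RPKM (median 11.1) and 14.9 to 21.4 RPKM (median 15.1). The groups of both genes were apart, with differences of 0.80 ± 0.12 (adjusted p = 5.32e-06) and 0.56 ± 0.11 (adjusted p = 0.000327). Canx, which encodes the lectin chaperone calnexin, rose by 0.60 ± 0.13 (adjusted p = 0.00229). Calr, which encodes its soluble counterpart calreticulin, lay at 86.3 to 121 RPKM (median 111) in the sham and 152 to 214 RPKM (median 176) in the irradiated libraries, with no overlap, and rose by 0.69 ± 0.12 (adjusted p = 6.18e-05). Pdia3, the isomerase that works with both, rose by 0.78 ± 0.16 (adjusted p = 0.000805). Sdf2l1, a cofactor of the chaperone BiP, rose by 1.23 ± 0.24 (adjusted p = 0.000668). Hspa5, which encodes BiP itself, did not pass (0.46 ± 0.16, adjusted p = 0.10). Ddit3, which encodes the death-promoting factor CHOP of the integrated stress response, had a difference of -0.42 ± 0.28 (adjusted p = 0.531), and Atf4, its main transcription factor, -0.25 ± 0.29 (adjusted p = 0.756).

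Of the genes of recognition and uptake, 4 of 20 tested phagocytic and Fc receptor genes rose and 1 fell. Gas6, which bridges dying cells to Axl, lay at 8.96 to 11.5 RPKM (median 9.84) in the sham and 18.2 to 23.2 RPKM (median 20.8) in the irradiated libraries (0.998 ± 0.21, adjusted p = 0.00142). Pros1, which encodes a related protein, rose by 0.39 ± 0.10 (adjusted p = 0.020). The genes Axl, Gas6 and Pros1 thus all rose at 1 day. Fcgr4, an activating Fc receptor, rose by 0.74 ± 0.17 (adjusted p = 0.00375), and Clec4a3, an inhibitory lectin receptor, fell, with a difference of -0.74 ± 0.13 (adjusted p = 5.34e-05). With the 12 libraries of 1 day fitted alone these counts were 2 and 1. Of 10 tested complement genes 2 rose and 1 fell (2 and 0 in that fit). The receptors of the anaphylatoxins rose: C3ar1 lay at 34.3 to 42.3 RPKM (median 40.1) in the sham and 81.5 to 163 RPKM (median 105) in the irradiated libraries (1.48 ± 0.12, adjusted p = 1.44e-12), and C5ar1 at 8.14 to 13.4 RPKM (median 10.5) and 21.7 to 49.4 RPKM (median 30.4), a difference of 1.46 ± 0.20 (adjusted p = 1.56e-06). Both pairs of groups were apart. C1qa, a chain of the initiating complex, went from 959.7 ± 102 to 1087 ± 87.02 RPKM and did not pass (0.18 ± 0.13, adjusted p = 0.568).

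In antigen presentation, the calls in the MHC class I list were all rises. Of 22 tested genes 3 rose, Tap1, Calr and Pdia3, and 0 fell, where 2.9% of all genes tested rose. Without sham library 6, and also with voom weights, 6 rose and 0 fell. With the 12 libraries of 1 day fitted alone 4 rose. At an unadjusted p below 0.05, 8 were higher and 0 lower, and the median difference was 0.17. Summed over the list, Calr and Pdia3 included, the sham libraries held 3929 to 4328 reads per 1000000 and the irradiated libraries 5208 to 6360. Tap1, the peptide transporter, rose by 0.93 ± 0.20 (adjusted p = 0.00203), and Calr and Pdia3 are chaperones. In the MHC class II and co-stimulation list 11 were tested, 1 rose and 2 fell. Those that fell encode the chains of H2-O, which restrains peptide loading: H2-Oa lay at 11.1 to 23 RPKM (median 19.2) in the sham and 2.13 to 11.2 RPKM (median 3.33) in the irradiated libraries (-1.91 ± 0.45, adjusted p = 0.00479), and H2-Ob had -0.71 ± 0.20 (adjusted p = 0.0227), with an adjusted p of 0.0855 without sham library 6. Cd80, a ligand of T cell co-receptors and a p53 target in the lists used, rose by 0.56 ± 0.12 (adjusted p = 0.00296).

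Few genes of basic metabolism passed the test. Of 40 tested nuclear genes of oxidative phosphorylation 2 rose and 1 fell, and 0 rose or fell without sham library 6 (1 rise and 1 fall with voom weights). Of 76 tested cytosolic ribosomal protein genes 3 rose and 0 fell (2 and 2 without that library). Of 27 tested proteasome genes 0 rose or fell, also without sham library 6 and with voom weights. Of the 27, 4 were higher and 0 lower at an unadjusted p below 0.05. In the glycolysis list of 16 tested genes, Slc2a5 was the 1 that passed. Of 23 tested antioxidant and NADPH oxidase genes 2 rose, Prdx1 (0.60 ± 0.18, adjusted p = 0.0466) and Prdx4 (0.66 ± 0.19, adjusted p = 0.0303), both peroxiredoxins, the latter of the endoplasmic reticulum. Neither passed with the 12 libraries of 1 day fitted alone. Prdx1 lay at 35.8 to 43.0 RPKM in irradiated libraries 1 to 3, while libraries 4 to 6, at 20.1 to 22.6, were within the sham range of 14.9 to 26.5. The highest sham value of Prdx1 was that of sham library 6, and the other 5 sham libraries did not exceed 20.2 RPKM. Of 12 tested inflammasome genes the 2 that rose were Il1b and Aim2. With the 12 libraries of 1 day fitted alone 1 rose, and Aim2 no longer passed. Of 23 tested immediate early genes 1 fell, Socs3. Mitochondrial genes took 3.47% ± 1.23 (SD, n = 6) of reads in the sham and 2.31% ± 0.672 in the irradiated libraries, a difference with p = 0.0693 in an exact two-sided permutation test. Without sham library 6, the lowest sham value, the sham mean was 3.86% ± 0.87 (n = 5) and the exact permutation p was 0.0108.

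**Figure D4:**
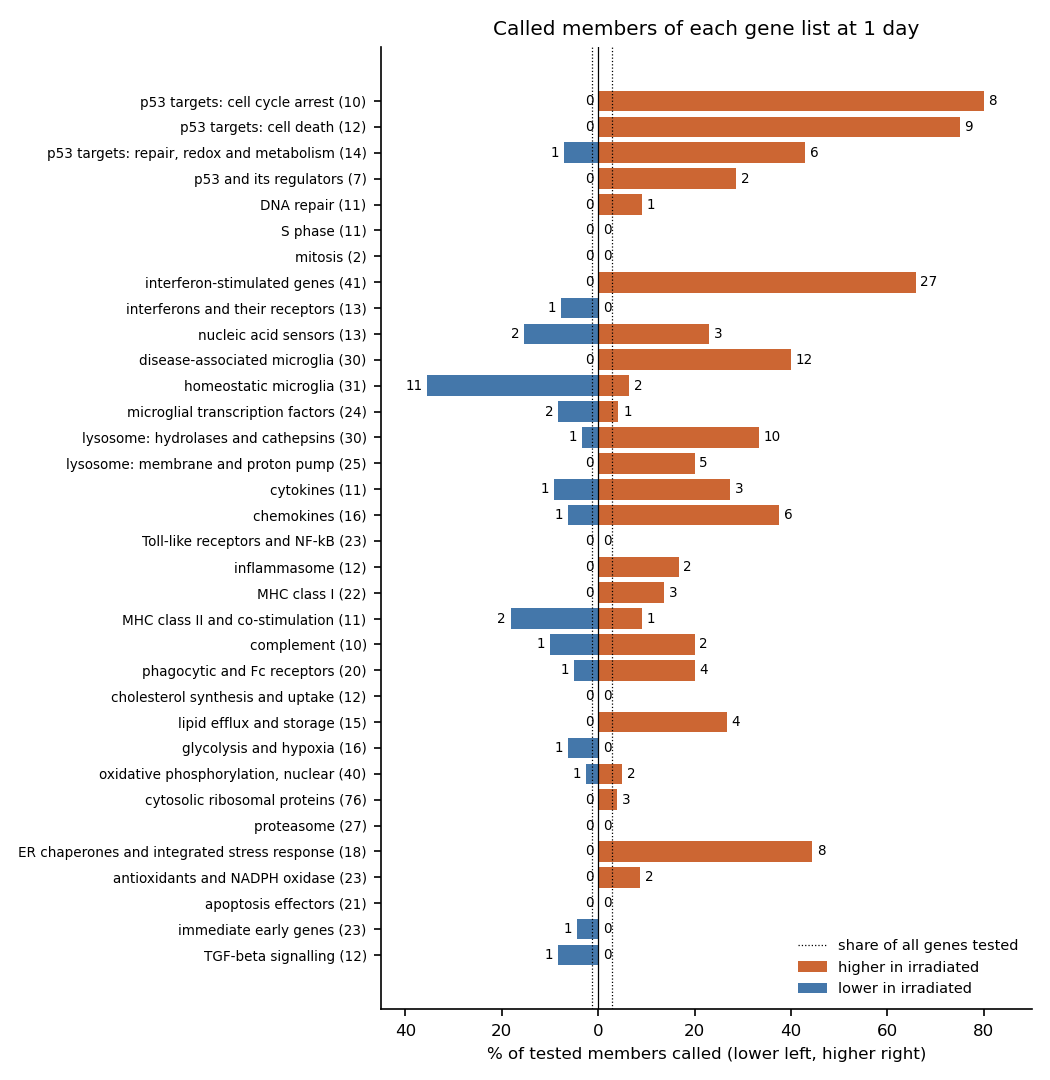
Bars give, for each of 34 gene lists, the share of tested members that rose (right) or fell (left) at 1 day, with the count at the bar's end and the number tested in brackets. Dotted lines mark the share among all genes tested, 2.9% for rises and 1.39% for falls. The longest bars to the right are those of the p53 arrest and death lists and the interferon-stimulated genes, and the longest to the left is that of the homeostatic genes, with 11 of 31.

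Some of the largest differences were in genes not yet described, most of them in no list. Among rises, Slamf9, a receptor of the SLAM family, lay at 14.9 to 26.8 RPKM (median 23.8) in the sham and 64.9 to 124 RPKM (median 98.4) in the irradiated libraries, a difference of 2.08 ± 0.28 (adjusted p = 5.93e-07). Ak1, adenylate kinase 1, lay at 1.72 to 4.26 RPKM (median 2.99) and 10.8 to 18.3 RPKM (median 13.8), a difference of 1.94 ± 0.17 (adjusted p = 9.61e-12). Fndc10, which encodes a fibronectin type III domain protein, lay at 0 to 5.44 RPKM (median 2.43) and 9.36 to 30.97 RPKM (median 16.2), a difference of 2.52 ± 0.37 (adjusted p = 4.73e-06). In all 3 the groups were apart. Zakit, an RNA gene within Zak, lay at 0 to 4.92 RPKM (median 0.576) and 12.1 to 26.1 RPKM (median 19.6), a difference of 3.48 ± 0.62 (adjusted p = 0.000119), and its reads cannot be told from those of Zak. Among falls, Ighj1, an immunoglobulin heavy chain joining segment, lay at 21.96 to 108 RPKM (median 52.8) in the sham and 0 to 29.6 RPKM (median 0) in the irradiated libraries, where it was at 0 in 4 of 6 (-4.34 ± 0.89, adjusted p = 0.00109). The segment is very short (chromosome 12, 113429781 to 113429833), so these values rest on few reads. Its highest sham value was that of sham library 6, which held 175382 reads on all genes. Crybb1, a crystallin gene of the homeostatic list that marks young microglia, lay at 6.15 to 11.1 RPKM (median 7.997) and 2.03 to 3.27 RPKM (median 2.75), a difference of -1.32 ± 0.28 (adjusted p = 0.00208). Tmem176a, a membrane protein of antigen-presenting cells, lay at 31.2 to 43.3 RPKM (median 39.9) and 12.3 to 24.5 RPKM (median 14.9), a difference of -1.22 ± 0.25 (adjusted p = 0.00135). The last 2 had groups that were apart. Wdr24, a subunit of the GATOR2 complex, passed with -1.68 ± 0.50 (adjusted p = 0.0412), but its sham values ran from 2.23 to 47.1 RPKM with library 5 far above the others.

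Markers of other cell types were mostly low, and 1 of them, Plac8, passed the test. The 13 neuronal markers summed to 2.84 to 22.8 reads per 1000000 in the sham (13.4 at most without sham library 6) and 0.834 to 10.9 in the irradiated libraries, with Nefm and Gad2 at 0 reads in all 12 libraries. For the 16 lymphocyte markers the sums were 393 to 837 (608 at least without sham library 6) and 427 to 764, most of it Ighm, while Cd3e, Cd3d, Cd3g and Cd8a were at 0 reads. Of the 2 tested, Ighm, the constant region of the immunoglobulin heavy chain, had a difference of -0.41 ± 0.16 (adjusted p = 0.157), with an adjusted p of 0.00951 without sham library 6, and Cd79b, a B cell receptor chain, had -0.64 ± 0.24 (adjusted p = 0.132). The part of these markers in the value of Ighj1 was not tested. The 15 monocyte and neutrophil markers summed to 15.4 to 51.3 in the sham and 26.1 to 92.4 in the irradiated libraries. Plac8 gave most of their reads, 143 in the sham and 544 in the irradiated group. Without sham library 6, the highest, the sham sums ended at 26.2, so that they met the irradiated range only at its edge. Ly6c2, a surface marker of inflammatory monocytes, had 0 reads in the 6 sham and 26 in the 6 irradiated libraries, where its median was 0, and was below the filter. In this list, S100a8, S100a9, Ly6g, Mpo, Ngp and Retnlg were at 0 reads, and Ccr2, the defining receptor of inflammatory monocytes, lay at 0.35 to 0.914 RPKM (median 0.532) in the sham and 0.315 to 0.897 RPKM (median 0.549) in the irradiated libraries. Of that list Plac8 rose (0.79 ± 0.21, adjusted p = 0.0156), a call that ended with the 12 libraries of 1 day fitted alone, and the part of these markers in the chemokine and interferon results was not tested. Of the perivascular macrophage markers 0 of 4 tested passed, and the sums over the list, 525 to 987 and 809 to 1021, overlapped. Stab1 made up most of them, with 8503 sham and 9605 irradiated reads. Reads on Mrc1 (1188 and 913), Lyve1 (130 and 48), Pf4, F13a1, Cd163, Cbr2 and Ms4a7 were fewer in the irradiated group. Those on Siglec1 (43 and 141) and Cd209f (5 and 14) were more. The library ranges overlapped for each marker. Astrocyte markers summed to 219 to 331 and 260.1 to 484. Most of this came from 1 marker, with Gfap at 4 sham and 9 irradiated reads. Oligodendrocyte lineage markers summed to 148 to 285 and 159 to 236, and endothelial and mural markers to 44.8 to 73.9 and 29.2 to 76.2. Neural progenitor markers summed to 35.5 to 435 and 22.7 to 213, erythrocyte markers to 13.3 to 51.6 and 14.1 to 193, and choroid plexus and ependymal markers to 1.49 to 290.1 and 0 to 74.4. Most members of these 6 lists were below the filter, and 14 were tested over the 6 lists together. Tested were 2 of 10 astrocyte, 4 of 11 oligodendrocyte lineage and 1 of 12 endothelial and mural markers. Of the neural progenitor, erythrocyte, and choroid plexus and ependymal markers, 2 of 8, 4 of 6 and 1 of 8 were tested. Of the tested members 0 rose or fell in each list, also without sham library 6 and with voom weights. At an unadjusted p below 0.05, 0 were higher and 0 lower over the 6 lists together.

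Each of the other times, 2 h, 6 h and 1 week, has 6 sham and 6 irradiated animals of its own, so the effect at 1 day could be set against theirs in the same fit. Compared with 2 h, the effect was higher for 204 genes (2.01%) and lower for 191 (1.89%). Against 1 week these counts were 293 (2.89%) and 257 (2.54%). Against 6 h they were 173 (1.71%) and 271 (2.67%), but the sham 6 h libraries were divided, and with sham 6 h libraries 5 and 6 alone they were 16 and 16. For Ctsb the 1 day effect exceeded those before and after. It was 0.11 ± 0.11 at 2 h, 0.79 ± 0.11 at 6 h, 1.46 ± 0.11 at 1 day and -0.35 ± 0.11 at 1 week, so the 1 day effect was larger than that at 2 h by 1.36 ± 0.15 (adjusted p = 7.78e-08). It was larger than that at 6 h by 0.67 ± 0.15 (adjusted p = 0.00761), or by 1.04 (adjusted p = 0.000685) with sham 6 h libraries 5 and 6 alone, and larger than that at 1 week by 1.81 ± 0.15 (adjusted p = 6.11e-11). Of the 5 genes with the smallest p values against 2 h, the other 4 had a smaller effect at 1 day: Vcam1, Tlr2, Nfkbie and Orai2. Vcam1, an adhesion molecule, had 3.10 ± 0.17 at 2 h and -0.20 ± 0.17 at 1 day (difference -3.30 ± 0.24, adjusted p = 5.24e-13). Tlr2, a receptor of bacterial lipoproteins, went from 2.56 ± 0.16 to 0.49 ± 0.16, and Nfkbie, an NF-kB inhibitor, from 1.95 ± 0.18 to -0.25 ± 0.18, with differences of -2.06 ± 0.23 (adjusted p = 7.78e-08) and -2.20 ± 0.25 (adjusted p = 8.36e-08). Orai2, a calcium channel subunit, had 1.73 ± 0.13 and 0.12 ± 0.13 (-1.60 ± 0.18, adjusted p = 7.78e-08).

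Against 6 h, Hsp90b1 had changed from -0.35 ± 0.12 to 0.80 ± 0.12 (difference 1.15 ± 0.17, adjusted p = 4.66e-05) and Ctsc from -0.21 ± 0.10 to 0.75 ± 0.10 (0.96 ± 0.14, adjusted p = 6.24e-05). The effect on Gdf15 was smaller at 1 day than at 6 h, where it was 5.11 ± 0.35, a difference of -3.40 ± 0.49 (adjusted p = 4.66e-05). Sulf2, an extracellular sulfatase, had effects of 2.89 ± 0.10 and 1.89 ± 0.10, and Glipr2, a protein of the pathogenesis-related family, of 2.54 ± 0.13 and 0.99 ± 0.13, with differences of -1.004 ± 0.14 (adjusted p = 2.77e-05) and -1.55 ± 0.19 (adjusted p = 1.38e-06). Against sham 6 h libraries 5 and 6 alone these 5 differences kept their sign, with adjusted p of 0.0176, 0.00915, 0.00722, 0.000348 and 0.000501. The effect at 1 week was below that at 1 day for Lpl, Dhx58, Spp1 and C3ar1. Lpl had -0.24 ± 0.20 at 1 week, which the 1 day effect exceeded by 2.14 ± 0.28 (adjusted p = 2.43e-06). Dhx58 had -0.70 ± 0.23 at 1 week, and the 1 day effect was larger by 2.59 ± 0.32 (adjusted p = 1.13e-06). Spp1 had -0.45 ± 0.24, and the 1 day effect was larger by 2.73 ± 0.34 (adjusted p = 1.13e-06). C3ar1 had 0.09 ± 0.12, and the 1 day effect was larger by 1.39 ± 0.17 (adjusted p = 1.13e-06).

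By list, the 41 interferon-stimulated genes had median effects of 0.24 at 2 h, 0.56 at 6 h, 0.90 at 1 day and 0.18 at 1 week. The 1 day effect was higher than that at 2 h for 9 of them and lower for 1, and higher than that at 1 week for 15 and lower for 0. Against 6 h it was higher for 6 and lower for 0 (1 and 0 with sham 6 h libraries 5 and 6 alone). Among the 30 disease-associated genes it was higher than at 2 h for 10 and than at 1 week for 14, and lower for 0 in both. Against 6 h it was higher for 5 and lower for 2 (4 and 0 with sham 6 h libraries 5 and 6 alone), and the median effect of these genes was 0.64 at 6 h and 0.61 at 1 day. For the 12 p53 death genes the medians were 1.95, 1.77, 1.08 and 0.73, and the 1 day effect was lower than that at 2 h for 5 and higher for 0, and the same counts were found against 6 h (0 and 0 with sham 6 h libraries 5 and 6 alone). Of the 18 chaperone and stress genes, the 1 day effect was higher than that at 2 h for 1 and lower for 2. It was higher than that at 6 h for 5 (3 with sham 6 h libraries 5 and 6 alone) and than that at 1 week for 6, and lower for 0 in both. For the 31 homeostatic genes it was lower than at 1 week for 9, higher for 0, and lower than at 2 h for 2. Against 6 h it was lower for 4 and higher for 2, and for 0 and 0 with sham 6 h libraries 5 and 6 alone. The 23 Toll-like receptor and NF-kB genes had a 1 day effect below that at 2 h for 7 and above it for 1.

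**Figure D5:**
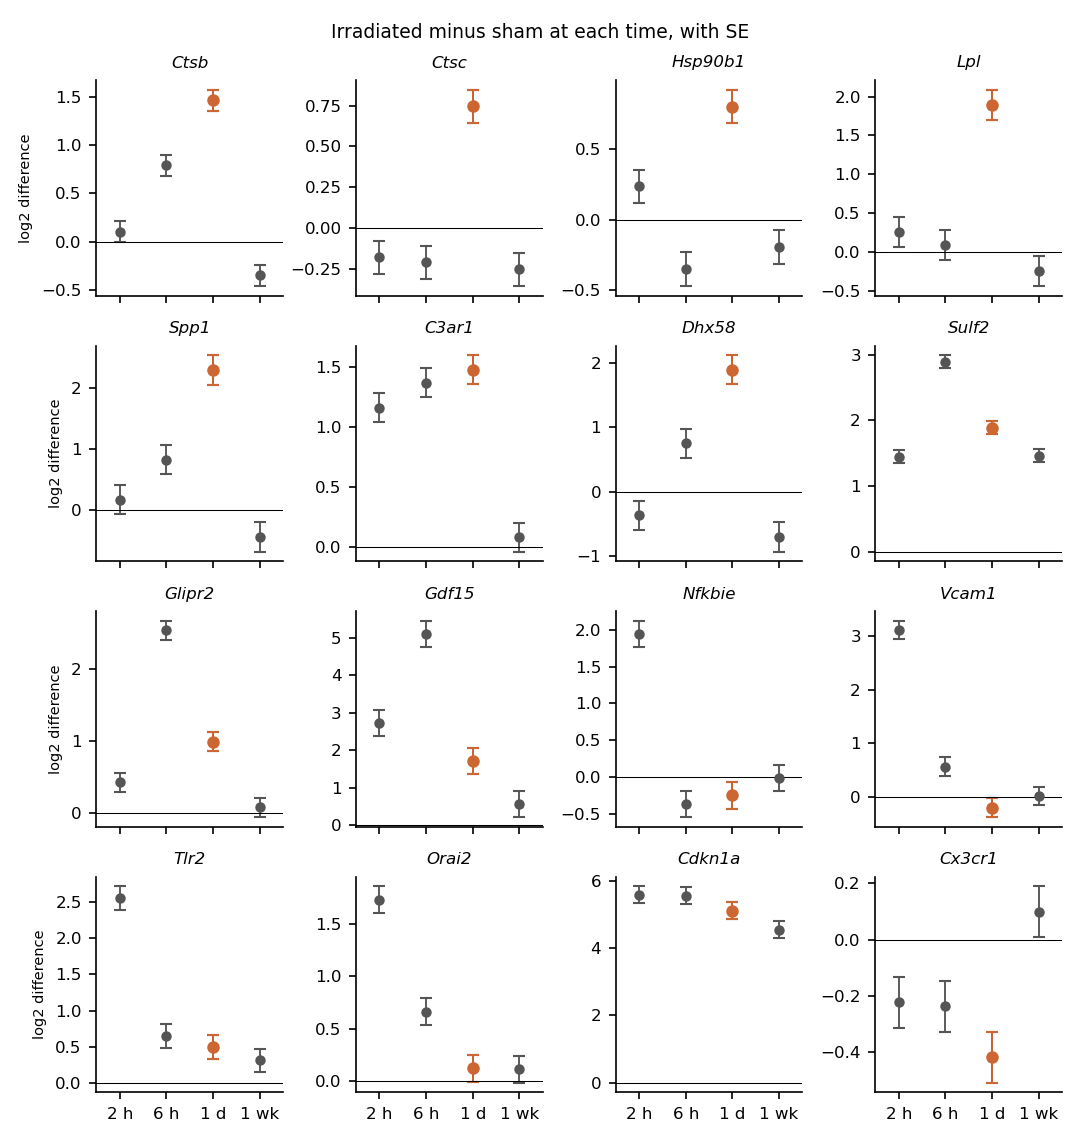
Each panel gives 1 gene, with the log2 difference, irradiated minus sham, at 2 h, 6 h, 1 day (coloured) and 1 week on the x axis and bars of 1 SE; the y axes differ between panels. Ctsb, Ctsc, Hsp90b1, Lpl, Spp1 and Dhx58 are highest at 1 day, and Vcam1, Nfkbie, Tlr2 and Orai2 are highest at 2 h.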

How the data were processed

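Levels come from 1 deposited table of RPKM (reads scaled by gene length and library total) for 48526 genes in 48 libraries, 8 groups of 6 animals. Per the submitters' processing notes the authors used STAR 2.6.1d and featureCounts 1.5.1, with bcl2fastq 2.20.0 and FastQC 0.11.8 also listed, and the builds named are mm10 and GRCm38. Annotation and strand setting are not given in the sources used here, and the labels name no batch. In the authors' RPKM table, all 719081 values above 0 came out as whole reads (tolerance 0.001 reads) divided by the gene span with introns and by 1 of 48 library totals, which was the library's own total for 2.05% of values. The deposited 1 day RPKM, as a multiple of the recomputed RPKM, ran from 0.122 (5th percentile) to 2.88 (95th). Reads were therefore recovered and RPKM recomputed with each library's own total. For 95 genes, each with at most 7 reads, more than 1 set of totals was possible.

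Genes with RPKM of at least 1 in at least 6 of the 48 libraries were kept (10132). On log2(RPKM + 1), limma 3.58.1 (R 4.3.3, moderated with trend and robust settings) was fitted to all 8 groups with 40 residual degrees of freedom, and p values were adjusted by Benjamini-Hochberg over all genes with a threshold of 0.05. Differences between times are interaction contrasts of that fit. Alternatives were a pseudocount of 0.1, no filter, at least 10 reads in 6 libraries, the 12 libraries of 1 day alone, values as deposited, 2 other scalings, voom and sample quality weights, leaving out sham library 6 or 4 sham 6 h libraries, and a replicate block. Voom without sham library 6, and the counts of list members without it, were added after the data were seen. On simulated reads over 10024 genes with this 1 day design, 46% of 2-fold and 68% of 4-fold changes were called, and 10.9% of 128 calls were unchanged genes.

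The comparison and the 45 gene lists (11 of them cell type markers) were chosen with earlier results of these data known, so they are not independent evidence. Genes named were the 15 largest rises and falls at a mean of at least 5 RPKM, up to 4 called members of each list by p (or the 2 highest where none passed), defining members, and the 5 smallest p values of each difference between times, without predicted and small RNA genes. Further list members given with values were named as defining members or chosen after their values were seen, and genes of no list named outside this rule are said to be so. Some members are counted in their lists and not reported here by name, in the text or the plots. Of 127 genes the rule named, 29 share positions with another gene that is neither predicted nor a small RNA. Promoter sequences are from RefSeq (GRCm38.p6), matched by symbol. SDs measure the spread between the animals of a group. Standard errors are those of a difference in the limma fit, with the spread estimated over all 8 groups together. For a given gene they are therefore the same at each time.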

Additional observations from a re-analysis of the deposited data

Results flagged for a closer look

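In 110 of the 127 genes the rule named (17 markers of cell types were not examined), the 6 libraries of a group were examined for 1 value far from the other 5 by Dixon's ratio. Such a value was found in 27 of 220 groups, where chance gives about 1 in 20, and 10 of the 27 were sham library 6, the library with the fewest reads. In that library Ube2c lay at 1.917 RPKM, Ndufb2 at 0, Calr at 86.34, Abca1 at 3.533, Dhx58 at 6.074, Rsad2 at 3.33, Tnf at 13.02, Il1a at 17.61, Glipr2 at 0.5251 and Slc2a5 at 13.52. In other sham libraries, Lpl (8.704), Ccl2 (16.1) and Zakit (4.921) stood apart in library 1, Spp1 (2.532) in library 4, and Wdr24 (47.15) and Zfp691 (43.74) in library 5. In the irradiated libraries, Ndufb2 (2.029) and Ighj1 (29.55) stood apart in library 1, Cd80 (0.6503) in library 2 and Pdia6 (21.39) in library 3. Sulf2 (8.039), H2-Oa (11.17) and AA474408 (8.866) did so in library 4, Bhlhe41 (15.68) and H2-Ob (4.764) in library 5, and Mycl (5.431) and Lst1 (6.657) in library 6. Leaving out sham library 6 ended the call of 5 of the 97 named genes that were called, among them Cox5b, H2-Ob, Ndufb2 and Rpl31.

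The effect of irradiation at 1 day differed from that at another time, by the interaction contrast in limma, and the 5 differences with the smallest p values against each time are given, 15 differences in 14 genes. Against 2 h the differences on the log2 scale were 1.357 for Ctsb, -2.199 for Nfkbie, -3.3 for Vcam1, -2.064 for Tlr2 and -1.604 for Orai2. Against 6 h they were -1.004 for Sulf2, 1.149 for Hsp90b1, -1.546 for Glipr2, 0.958 for Ctsc and -3.401 for Gdf15. Against 1 week they were 2.137 for Lpl, 2.591 for Dhx58, 1.81 for Ctsb, 2.733 for Spp1 and 1.389 for C3ar1.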

How the results depend on the processing

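The 294 rises and 141 falls at 1 day became 39 and 0 on the values as deposited (321 and 104 at an unadjusted p below 0.05), and 443 and 300 with sample quality weights. The 12 libraries alone gave 55 falls, voom 242, and voom without sham library 6 253. The genes called for the 1 day effect minus 6 h effect went from 444 to 32 with sham 6 h libraries 5 and 6 alone. Those called for the 1 day effect minus 1 week effect went from 550 to 847 without sham library 6 and to 1065 with voom. Of 97 named genes called, 78 were lost on the values as deposited, 24 with the 12 libraries alone and 10 or fewer under each other setting, and none changed sign. The mitochondrial share, -1.16 percentage points, became -1.55 without sham library 6. The cause was not tested for any of these.

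The replicate block gave 270 rises and 102 falls. Same-numbered libraries correlated at -0.107 to 0.079, so the numbers were not taken as pairs.

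Changes of sign were found in genes that did not pass. Without mitochondrial genes in the total, Cnp had -0.0047 and Pcna -0.0052. With voom, Aldoc had 0.052, Pcna -0.0064 and Cldn5 -0.213, and without sham library 6 as well Aldoc had 0.223, Pcna -0.00062 and Mcm7 0.0022. With sample quality weights, Cdk1 had 0.044, Pcna -0.030 and Cldn5 -0.032. As deposited, Mcm7 had 0.074 and Cd14 0.304. Cdk1 had 0.038 without sham library 6. Sham library 6 held 175382 reads, so a gene at a low level has few reads there, and with 6 animals a group a change that missed the threshold is not shown to be absent.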

Other observations

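The genes given here were picked after their values were seen. Several genes outside the lists rose at 1 day. Fam212b, which encodes an inhibitor of a p21-activated kinase, lay at 0 to 0.125 RPKM in the sham and 3.19 to 6.14 RPKM in the irradiated libraries (difference 2.41 ± 0.11, adjusted p = 3.82e-21). Sulf2, a sulfatase of heparan sulfate, lay at 0.691 to 1.28 RPKM and 5.58 to 8.04 RPKM, and Mmp2, a matrix protease, at 0.515 to 1.02 RPKM and 3.54 to 5.4 RPKM. For these 3 genes no libraries of the groups overlapped. Rnf213, a large ubiquitin ligase, rose by 1.25 ± 0.12 (adjusted p = 2.09e-10), and App, the amyloid precursor protein gene, by 0.80 ± 0.09 (adjusted p = 4.05e-09). Lrp1, a receptor of lipoproteins and amyloid, rose by 0.79 ± 0.14 (adjusted p = 0.000197). Anxa5, a phosphatidylserine-binding protein gene, rose by 1.18 ± 0.14 (adjusted p = 6.11e-08). P4hb and Edem1, further folding and degradation genes of the endoplasmic reticulum, rose by 0.49 ± 0.09 (adjusted p = 0.00027) and 0.52 ± 0.10 (adjusted p = 0.000295).

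Among falls outside the lists, Sepp1, which encodes the selenium carrier selenoprotein P, lay at 223 to 297 RPKM in the sham and 114 to 158 RPKM in the irradiated libraries (difference -1.02 ± 0.13, adjusted p = 1.02e-07). Rgs2, a regulator of G protein signalling, lay at 128 to 183 RPKM and 79.9 to 103 RPKM, and Vsir, an inhibitory checkpoint receptor gene, at 71.2 to 86.7 RPKM and 32.4 to 63.6 RPKM. Ptafr, the receptor of platelet-activating factor, fell as well (difference -0.68 ± 0.14, adjusted p = 0.000966), and so did Cd53, a tetraspanin (-0.61 ± 0.12, adjusted p = 0.00039). In all 5 of these genes every irradiated library was below every sham library.

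The irradiated libraries were divided for some genes, with libraries 1 to 3 on one side and 4 to 6 on the other. Csf1r lay at 126, 66.5 and 117 RPKM in libraries 1 to 3 and at 232, 218 and 230.2 in libraries 4 to 6. Tmem119 lay at 445, 458 and 548 RPKM and at 714, 758 and 704. Irf7 lay at 2.63, 6.43 and 4.01 RPKM and at 13.5, 13.6 and 11.8, and Lgals3bp, a secreted binding partner of galectins, at 36.3, 23.5 and 25.4 and at 58.3, 57.1 and 53.2. For Cd63 the order was the other way, with 112, 160.4 and 96.8 RPKM against 48.8, 52.2 and 45.3. On the second principal component, libraries 1 to 3 lay at -37.8 to -22.0 and libraries 4 to 6 at -15.2 to -9.46. The labels give no batch that separates these libraries, and what separates them was not tested.

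In the RefSeq promoters (GRCm38.p6, 250 bases before the start site, either strand), the letters CACGTG, an E-box that factors of the lysosomal gene network can bind, were found in 8 of 23 matched tested hydrolase and cathepsin genes (34.8%) and in 5 of 21 membrane and proton pump genes (23.8%). Of all 27025 promoters 6.86% held it, and of the 5666 tested genes 10.8%. Among the hydrolase genes, 1 of 8 that rose and 7 of 14 that did not pass held it, and among the membrane and proton pump genes 2 of 5 that rose and 3 of 16 that did not.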
